A study of Mus musculus with 4 samples.

Results

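The genes described here are 5 Toll-like receptors, the lipopolysaccharide coreceptors and receptor partners Cd14, Ly96, Ly86 and Cd180, and the signalling adaptor Myd88. They are 10 of the 18194 genes that the array's annotation names, and were taken as all 15 of its 45101 probe sets whose single gene symbol is one of these names. Members were chosen by function and by their difference in signal between the DSS and untreated arrays, which had been seen, so that difference is given for them as a description and without a test. RNA came from gamma delta intraepithelial lymphocytes, T cells that live within the gut epithelium, sorted from the colon of conventionally-raised C57b/6 mice. The untreated group had 2 samples and no treatment. The DSS group had 2 samples from mice that received 2% dextran sulfate sodium (DSS), which damages the lining of the colon, over 5 days, followed by 3 days of recovery on normal drinking water. All 4 samples share the strain, the conventional housing, the sort and an RNA amplification step. The labels give neither age nor sex and do not say whether a sample was 1 mouse or a pool, so the spread between replicates, which is all that a p-value here covers, may be technical.

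Toll-like receptors are membrane proteins that bind conserved microbial molecules and recruit the adaptor MyD88, which starts a kinase cascade leading to NF-kB and inflammatory cytokines. TLR4 senses lipopolysaccharide, the endotoxin of Gram-negative bacteria, through its partner MD-2 (encoded by Ly96) after CD14 has delivered the ligand. RP105 (encoded by Cd180) resembles TLR4 but lacks its signalling tail and sits at the surface bound to MD-1 (encoded by Ly86). In the gut these genes are known chiefly from macrophages, dendritic cells, neutrophils and, for the RP105 and MD-1 pair, B cells, and MyD88 signalling is known to protect the epithelium during DSS injury.

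Values below are array signals, linear intensities that the submitters had scaled to a common trimmed mean, and differences are in log2(signal + 32), DSS minus untreated. Each array had 1 sample and the number of arrays limits the precision. The median signal of an array was 193.8 and 213.9 without treatment against 157.1 and 163.3 after DSS, and a probe set below these values is called dim here. The median of the hybridisation control probe sets was 36780 and 23560 for untreated against 5027 and 4737 for DSS samples, so array processing and DSS cannot be told apart. The T cell identity of the sort was visible on all 4 arrays. Itgae, the integrin that binds these lymphocytes to epithelium, had 101512 and 98459.8 without treatment against 43558 and 43518 after DSS on its brighter probe set, a difference of -1.20 that was -0.44 quantile-normalized, and its other probe set differed by 0.52. The gamma receptor segment Trgv4 had 41444 and 46104 against 29034 and 31855 on its brightest probe set. That difference of -0.52 was -0.15 quantile-normalized, and its other probe sets differed by -0.10 and 1.46. Macrophage markers were also present and were higher in the DSS samples, as detailed after the members. In bulk RNA, more cells of a type and more RNA per cell cannot be told apart.

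Ly86, Cd14 and Tlr1 were the members with the widest gap between the groups: on each of their probe sets both DSS signals were at least 2-fold above both untreated signals. Tlr2, Cd180 and 1 of 4 Tlr4 probe sets were also higher on both DSS arrays, by less, and that Tlr4 probe set was dim on every array. Myd88 was bright and level. Tlr7, Tlr13, Ly96 and the other Tlr4 probe sets overlapped between groups, except 1 Tlr7 probe set that was lower. That Tlr7 probe set was dim on every array, and all of the others but Tlr13 were dim on most arrays. In all, 6 of the 15 member probe sets were higher on both DSS arrays, where 13.6% of all probe sets were. A further 1 was lower on both, where 25.4% of all were, and 8 overlapped. The 3 that were at least 2-fold higher compare with 3.07% of all probe sets, while 5.69% of all were at least 2-fold lower. Because the members were proposed from this contrast, nothing is read from these shares.

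**Figure D1:**
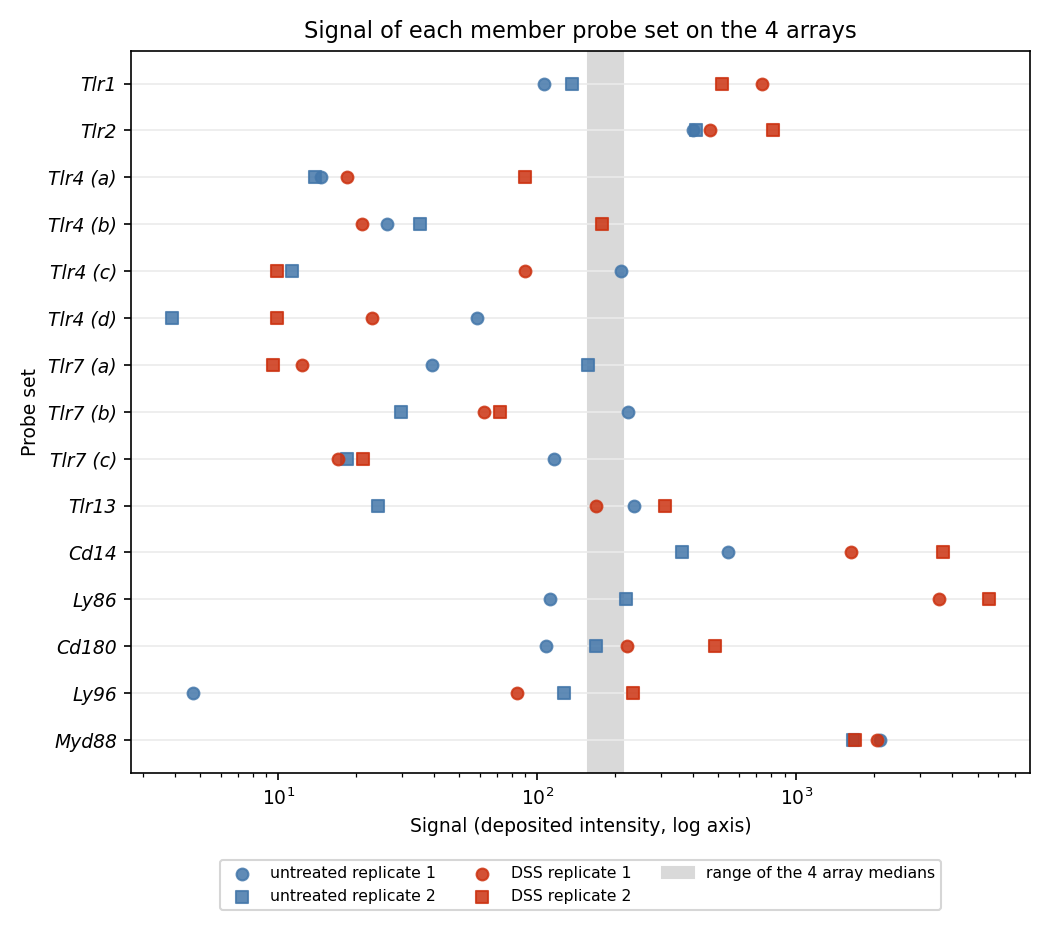
Signal of the 15 member probe sets (rows) on a log axis, with 1 point per array, blue for untreated and red for DSS, circles for replicate 1 and squares for replicate 2. The grey band spans the 4 array medians, 157.1 to 213.9; the Ly86, Cd14 and Tlr1 points of DSS samples lie to its right, and those of Tlr4 and Tlr7 lie mostly to its left.

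The RP105 and MD-1 pair included the member with the largest difference. Ly86 (MD-1, the secreted partner of RP105) had signals of 112 and 220.3 without treatment against 3545 and 5533 after DSS. Both untreated signals were near or below the array medians and both DSS signals far above, with no overlap. The mean signal was 27.3-fold higher in DSS samples, and the log2 difference was 4.55 ± 0.45 (SE, n = 2 per group). Cd180 (RP105 itself) had 108 and 168 without treatment against 221 and 487 after DSS. The groups did not overlap, but the lower DSS signal lay close to the higher untreated one, and the log2 difference was 1.11 ± 0.72, or 0.60 without DSS replicate 2. Both partners were therefore higher on both DSS arrays, while the size differed.

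Cd14 (the surface protein that hands lipopolysaccharide to TLR4) had 544 and 360.2 without treatment against 1617 and 3668 after DSS. It was above the array median on all 4 arrays and the groups did not overlap, with DSS replicate 2 at 2.27 times DSS replicate 1. The mean signal was 5.85-fold higher in DSS samples and the log2 difference was 2.38 ± 0.48. Ly96 (MD-2, the lipopolysaccharide-binding partner of TLR4) had 4.7 and 127 without treatment against 83.4 and 233 after DSS. It was dim on 3 of 4 arrays, the groups overlapped, and its difference of 1.20 ± 0.97 was about the size of its error and came to 0.14 without untreated replicate 1.

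Tlr4 (the lipopolysaccharide receptor) was read on 4 probe sets, lettered a to d in the order of their names, whose differences had both signs. On the first, a, the signals were 14.6 and 13.9 without treatment against 18.4 and 89.5 after DSS, all dim. On b, designed on the same transcript record, they were 26.2 and 35.2 against 21.1 and 177. On both, the DSS mean was raised by DSS replicate 2, and DSS replicate 1 lay near or within the untreated values, so the differences of 0.76 ± 0.54 and 0.75 ± 0.79 rest on that array. Without it they were 0.13 and -0.24. The other 2, c and d, differed by -0.52 ± 0.96 and -0.25 ± 0.50, with their highest signals, 211 and 58.3, on untreated replicate 1. Without that array they were 0.72 and 0.42. No Tlr4 probe set exceeded its array's median on more than 1 array, and without detection calls it was not shown to be above background.

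Tlr1 and Tlr2 form a heterodimer that binds bacterial triacyl lipopeptides. Tlr1 had 106 and 136 without treatment against 738 and 515 after DSS, below the array medians in the first group and above them in the second. The mean signal was 5.16-fold higher and the log2 difference was 2.09 ± 0.59. Among members higher on both DSS arrays it was the one for which DSS replicate 1 exceeded DSS replicate 2. Tlr2, which pairs with either Tlr1 or Tlr6, had 399 and 411 without treatment against 465 and 809 after DSS. It was above the median on all arrays, and the untreated pair was close together while DSS replicate 1 lay just above it. Its difference was 0.57 ± 0.49, and 0.19 without DSS replicate 2. Tlr6, the close relative of Tlr1 and alternative partner of Tlr2, is not a member; it had 521 and 239 against 374 and 295, overlapping groups, and an estimate of -0.09 that turned to 0.15 quantile-normalized and 0.22 on a common median.

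Tlr7 and Tlr13 sit in endosomes and bind single-stranded RNA, Tlr13 that of bacterial ribosomes. The 3 Tlr7 probe sets, a to c, gave estimates below 0 and were dim on all but 1 reading. On a, whose name marks it as able to bind related transcripts, the signals were 39.3 and 157 without treatment against 12.4 and 9.52 after DSS, with no overlap and a difference of -1.44 ± 0.64. On b they were 223 and 29.7 against 62.1 and 71.9, and on c 116 and 18.5 against 17.0 and 21.3, so both overlapped and the untreated arrays spanned more than the groups differed. Without untreated replicate 1 the estimates of b and c were 0.68 and 0.02. Tlr13 had 237 and 24.3 without treatment against 168 and 309.8 after DSS. Its untreated arrays bracketed DSS replicate 1, its difference was 1.09 ± 0.96, and without untreated replicate 2 it was -0.04.

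Myd88 (the adaptor shared by most Toll-like receptors and the IL-1 receptor family) had 2099 and 1658 without treatment against 2051 and 1683 after DSS. It was well above the array median on all 4 arrays, the groups overlapped almost entirely, and its difference was -0.01 ± 0.35. The sign is not settled, being -0.11 quantile-normalized and 0.33 on a common median, a scaling that moved the median of all genes in the fit from -0.07 to 0.25. The adaptor thus had no gap between groups on the arrays where Ly86, Cd14 and Tlr1 had wide ones.

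**Figure D2:**
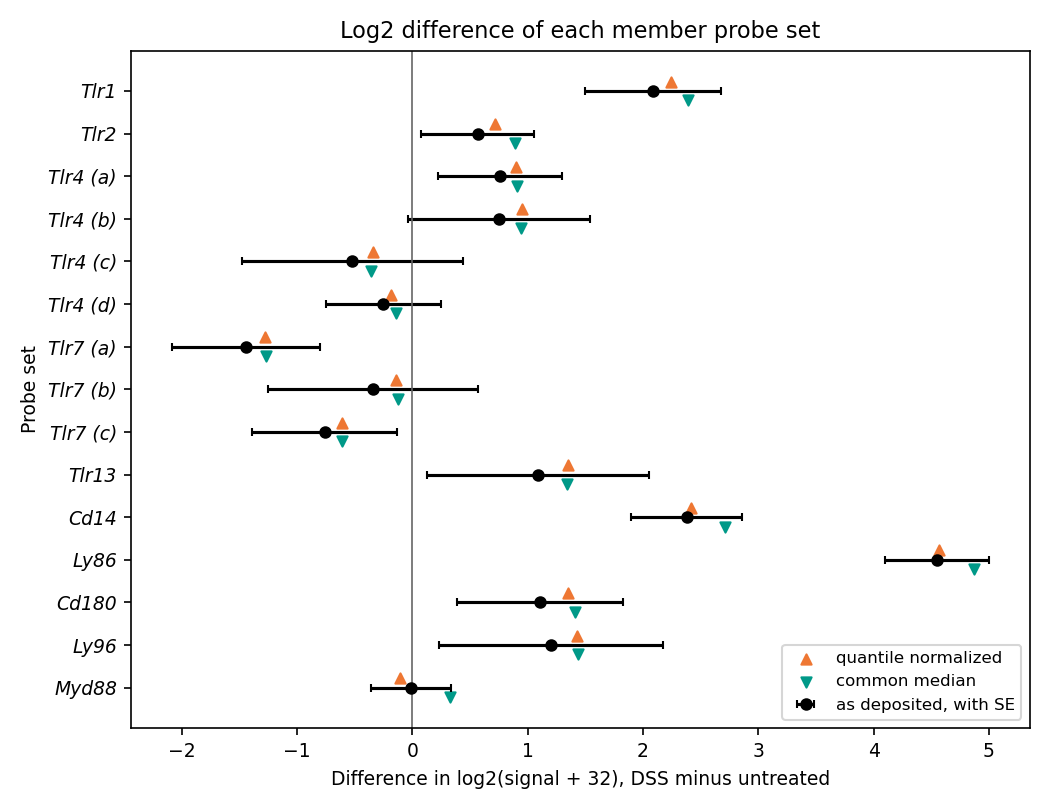
Difference in log2(signal + 32), DSS minus untreated, for the 15 member probe sets, with the SE as bars (n = 2 per group); triangles give the same difference after quantile normalization or scaling to a common median. Ly86 stands at 4.55, Cd14 at 2.38 and Tlr1 at 2.09. The Tlr4 probe sets fall on both sides of 0 and the Tlr7 probe sets below it, both lettered in order of their names.

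The replicates within a group were not alike for every member. Of the 15 member probe sets, 10 were higher on DSS replicate 2 than on DSS replicate 1. The ratio of these arrays was 1.56 for Ly86, 2.20 for Cd180, 1.74 for Tlr2, 4.86 and 8.40 for Tlr4 a and b and 0.697 for Tlr1. Over all genes in the fit the median log2 difference between these arrays was 0.01. The same ratio for summed marker signals was 1.38 for macrophage, 2.13 for neutrophil, 1.52 for B cell and 1.02 for dendritic cell markers. It was 0.849 for epithelial, 0.947 for T cell and 0.933 for mast cell and eosinophil markers. Among untreated arrays, Tlr13, Ly96, Tlr4 c and Tlr7 b differed by more than 2 on the log2 scale.

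**Figure D3:**
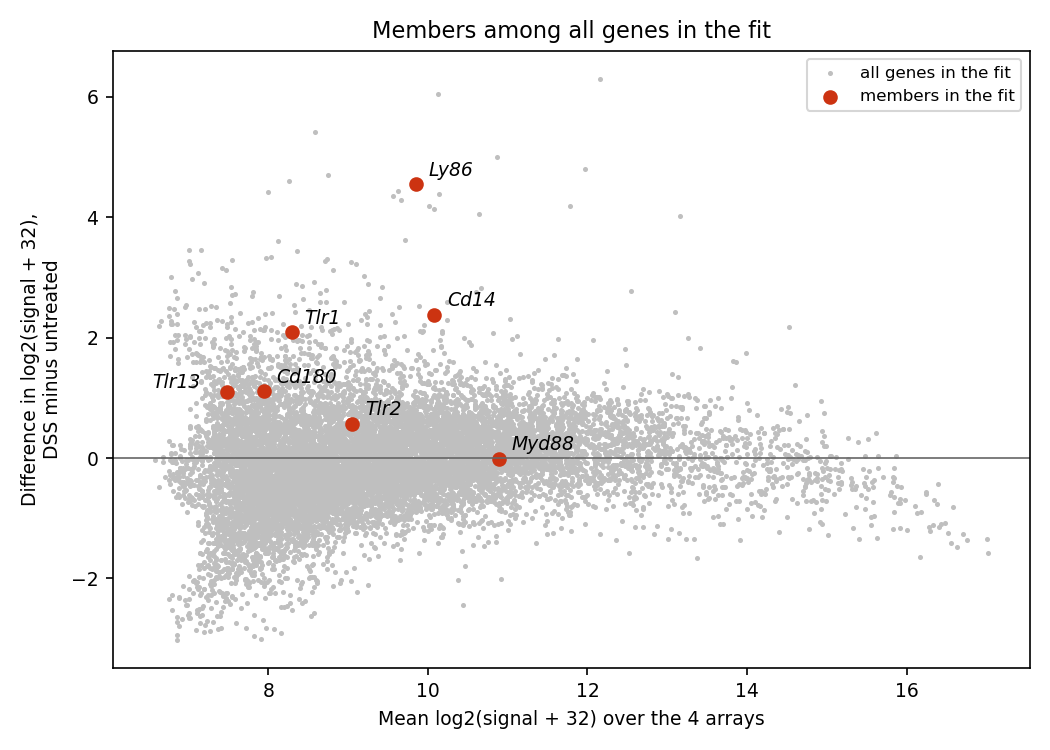
Mean log2(signal + 32) over the 4 arrays against the DSS minus untreated difference, for all 12424 genes in the fit (grey) and the 7 members that entered it (red). Ly86 lies near the upper edge of the cloud at 4.55 and Myd88 in its middle at -0.01.

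The gene fit kept a probe set only if it exceeded the median of its array on at least 2 of the 4 arrays. Of the 10 members 7 entered; Tlr4, Tlr7 and Ly96 did not. Tlr1 and Cd180 entered through the DSS arrays alone, so that fit could only have seen them higher. Of the 7, 5 were higher on both DSS arrays, as were 17.2% of all genes in the fit, and this count supports nothing for that reason. For the member with the largest difference, Ly86, the 3 of 12423 other genes with the nearest pattern over the 4 arrays, by Euclidean distance between centred log2 values, were Ms4a6d at 0.25, Ifitm3 at 0.58 and Ifitm1 at 0.67. Ms4a6d, a tetraspan membrane protein of myeloid cells, had 159.9 and 284 against 4481 and 5861. The interferon-inducible membrane proteins Ifitm3 and Ifitm1 had 69.9 and 245 against 2331 and 4921, and 71.9 and 246 against 3714 and 3548.

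The bases just before an annotated start site are shown for 4 members. Thus 3 with higher signals on both DSS arrays can be read beside the level Myd88. Tlr2, also higher on both DSS arrays, has a window that is not printed. Windows of 6 of the 10 members were taken from RefSeq's promoter table (build GRCm38.p6). Those of Tlr4, Tlr7, Cd14 and Ly96 were not searched, so nothing is said of their motifs. The 250 bases before each start are printed 5′ to 3′, with matches to the motifs searched in capitals. Ly86 is at chr13:37345095-37345344 and Cd180 at chr13:102693297-102693546, both on the plus strand. Tlr1 is at chr5:64933559-64933808 and Myd88 at chr9:119340019-119340268, both on the minus strand.
Ly86: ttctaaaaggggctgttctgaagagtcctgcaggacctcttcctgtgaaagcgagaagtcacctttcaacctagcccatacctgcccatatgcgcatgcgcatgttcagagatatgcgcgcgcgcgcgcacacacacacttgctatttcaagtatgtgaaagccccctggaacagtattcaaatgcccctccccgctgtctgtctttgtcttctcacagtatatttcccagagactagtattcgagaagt
Cd180: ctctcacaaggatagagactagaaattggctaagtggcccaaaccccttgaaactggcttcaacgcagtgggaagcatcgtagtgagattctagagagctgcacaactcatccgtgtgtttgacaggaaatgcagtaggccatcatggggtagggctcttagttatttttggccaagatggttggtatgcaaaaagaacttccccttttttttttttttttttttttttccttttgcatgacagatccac
Tlr1: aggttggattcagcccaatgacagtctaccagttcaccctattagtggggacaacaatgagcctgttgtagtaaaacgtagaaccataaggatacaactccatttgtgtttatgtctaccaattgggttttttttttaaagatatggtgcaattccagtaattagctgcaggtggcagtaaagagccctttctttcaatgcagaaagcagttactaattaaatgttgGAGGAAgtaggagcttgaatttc
Myd88: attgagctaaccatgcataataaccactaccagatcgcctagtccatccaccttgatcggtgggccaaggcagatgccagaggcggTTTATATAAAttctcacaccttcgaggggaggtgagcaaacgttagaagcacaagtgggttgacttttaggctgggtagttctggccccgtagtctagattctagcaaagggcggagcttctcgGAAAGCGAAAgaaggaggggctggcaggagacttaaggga
The motifs were searched on both strands: GAGGAA, the core of sites for the myeloid factor PU.1, TGANTCA for AP-1, TTGCNNAA for CCAAT/enhancer-binding proteins, the NF-kB motif, the interferon-stimulated response element and TATAAA for the TATA box. Tlr1 held GAGGAA with its first base 23 bases before the start used for this window. The annotated Tlr1 gene extends to chr5:64933600, inside the window, so this start is not the outermost and the match lies within the gene. Of 32851 promoter windows of this length 23.3% held GAGGAA anywhere, and Tlr13, not printed, held it 83 bases before its start. Tlr1 and Cd180 each have a second window, also not printed, which lies within or reaches into the annotated gene. Neither of these held any of the 6 motifs. Myd88 held GAAAGCGAAA 40 bases before the start, a match found in 2.98% of windows, and TATAAA on each strand around 160 bases before it, against 12.4% of windows; these last matches overlap each other. The Ly86, Cd180 and Tlr2 windows held none of the 6 motifs as spelled, and the Tlr2 window reaches into its annotated gene. Other spellings were not searched, so a window without a match may still hold such a site. The other shares were 6.75% for AP-1, 9.56% for CCAAT/enhancer-binding proteins and 0.356% for NF-kB.

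The other genes of the pathway were listed by function, but with earlier results of these data known. The 9 lists held 100 genes, of which 88 were read on the array and 75 entered the fit. Limma called 0 of these 75 genes after Benjamini-Hochberg adjustment over all 12424 genes, where it called 0% of all genes. At an unadjusted p under 0.05 there were 11 higher and 2 lower, and of all genes 461 higher and 473 lower. Without untreated replicate 1 limma called 20 of the 75, 17 higher and 3 lower, beside 1791 (14.4%) of all genes, 1132 higher and 659 lower. Without untreated replicate 2 it called 12, all higher, beside 755 (6.08%) of all genes, 549 higher and 206 lower. In both of these fits the lone untreated array is assumed to vary like the DSS pair, whose median absolute log2 difference over probe sets was 0.46 against 0.74 for the untreated pair. Without either DSS array limma called 0. On both DSS arrays 24 were higher and 11 lower, where 17.2% of all genes in the fit were higher and 23.8% lower, and 40 overlapped. The median difference of the 75 was 0.38, against -0.07 for all genes. Because earlier results were known when the lists were drawn up, these counts and medians are a description and nothing is read from them.

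Among the remaining Toll-like receptors, those bright enough to be tested had estimates below 0 as deposited, though Tlr9 was above the array medians on the untreated arrays alone, so the fit could only have seen it lower. Of 7 listed, 6 were read and 4 entered the fit, with a median of -0.98 (-0.76 quantile-normalized and -0.69 on a common median). Tlr9 (the receptor for unmethylated DNA) had 476 and 486 without treatment against 109.8 and 65.4 after DSS, a difference of -2.13 ± 0.58 (limma adjusted p = 0.649). Tlr5 (the flagellin receptor) had 623 and 459.9 against 67.8 and 346, a difference of -1.55 ± 0.70 (limma adjusted p = 0.649). Both were lower on both DSS arrays and neither passed the test. Tlr12 overlapped, at 246 and 134 against 274 and 52.9, a difference of -0.41, and its other probe set differed by 0.20. Tlr8 and Tlr3 were too dim to enter: Tlr8 had 251 and 190 against 85.3 and 41.1, and Tlr3, the receptor for double-stranded RNA, differed by 1.54 on one probe set and by -1.54 on another.

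Adaptors other than Myd88 centred on -0.61 across 3 genes (-0.50 quantile-normalized and -0.28 on a common median). Ticam1 (TRIF, the adaptor of Tlr3 and of internalised Tlr4) had 749.6 and 615 without treatment against 509.5 and 369 after DSS, lower on both DSS arrays by 0.61 ± 0.42 (limma adjusted p = 0.703). Tirap (the bridge between Tlr2 or Tlr4 and MyD88) had 233 and 43.5 against 202 and 522, with estimates of 1.35 and -1.06 on its 2 probe sets. Sarm1 gave -1.31, -0.51 and 1.44 on its 3 probe sets.

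Receptor-proximal kinases and ubiquitin ligases had a median difference of 0.28 in 15 genes tested (0.61 on a common median), with 2 higher on both DSS arrays, 1 lower and 12 overlapping. Peli1 (an E3 ligase acting on IRAK kinases) had 1415 and 1158 without treatment against 2776 and 3163 after DSS, 1.19 ± 0.38 on its brightest probe set (limma adjusted p = 0.649), but its other 4 ranged from -1.03 to 0.14. Irak2, an IRAK family member, had 992 and 831 against 577 and 506, at -0.72 ± 0.39 (limma adjusted p = 0.673). Pathway transcription factors had a median difference of 0.38 in 9 genes tested (0.73 on a common median), with Atf3 (a repressor induced by Toll-like receptor signalling) at 1.01 ± 0.48 and the NF-kB subunit Rel at 0.98 ± 0.62 (limma adjusted p = 0.651 and 0.693). Atf3 had 262 and 374 against 482 and 909, without overlap.

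Inhibitors had a median difference of 0.43 in 11 genes tested (0.76 on a common median), with 4 higher and 2 lower on both DSS arrays. Tnfaip3 (A20, a brake on NF-kB) had 5942 and 2356 without treatment against 21048 and 19538 after DSS, 2.43 ± 0.50 on its brightest probe set (limma adjusted p = 0.51) and -0.93 on its other. Socs3 (an inhibitor of cytokine signalling) differed by 1.96 ± 0.61 (limma adjusted p = 0.649) and by 2.18 on another probe set, both of which can bind related transcripts, and by -0.46 on the third. Receptor folding and trafficking factors had a median difference of 0.64 in 6 genes tested (0.96 on a common median). Slc15a4 (a lysosomal transporter needed by endosomal Toll-like receptors) had 215 and 91.5 against 955 and 592, at 2.17 ± 0.55 (limma adjusted p = 0.649), and -0.60 on its other probe set. Unc93b1 (the escort of Toll-like receptors to endosomes) had 294 and 332 against 523 and 491, at 0.64 ± 0.42 (limma adjusted p = 0.699).

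Other microbe sensors had a median difference of 0.38 in 11 genes tested (0.72 on a common median), 5 higher and 2 lower on both DSS arrays, and the named genes are lectin receptors. Clec4e (Mincle, a receptor for mycobacterial glycolipids) had 90.6 and 20.8 without treatment against 549.8 and 1592 after DSS, 3.60 ± 0.73 (limma adjusted p = 0.503) and 2.01 on its other probe set. It was above the medians on the DSS arrays alone, so the fit could only have seen it higher. Clec7a (Dectin-1, the receptor for fungal glucans) had 494 and 293 against 1213 and 2265, at 2.03 ± 0.49 (limma adjusted p = 0.619). Receptors of the IL-1 and IL-18 family, which also use MyD88, had a median difference of 0.25 in 3 genes tested (0.57 on a common median). Il1rap was at -0.46 ± 0.48 and Il18rap at 0.59 ± 1.04 (limma adjusted p = 0.794 and 0.879). The other Il1rap probe sets differed by 0.72, -0.77, 1.77 and -0.60, and the other of Il18rap by 0.18. Endotoxin response genes, known products of Toll-like receptor signalling in macrophages, had the highest median of these lists, 1.21 over 13 genes, with 8 higher and 1 lower on both DSS arrays. Of these 13, 2 (Il1a and Saa3) entered through the DSS arrays alone and could only be seen higher. Il1b (interleukin-1 beta) differed by 4.05 ± 0.38 (limma adjusted p = 0.0823) and Saa3 (serum amyloid A3) by 4.60 ± 0.60 (limma adjusted p = 0.211). The typical endotoxin-induced Tnf overlapped, at 0.21 ± 0.52 (limma adjusted p = 0.919); it was chosen for mention after its values were seen.

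**Figure D4:**
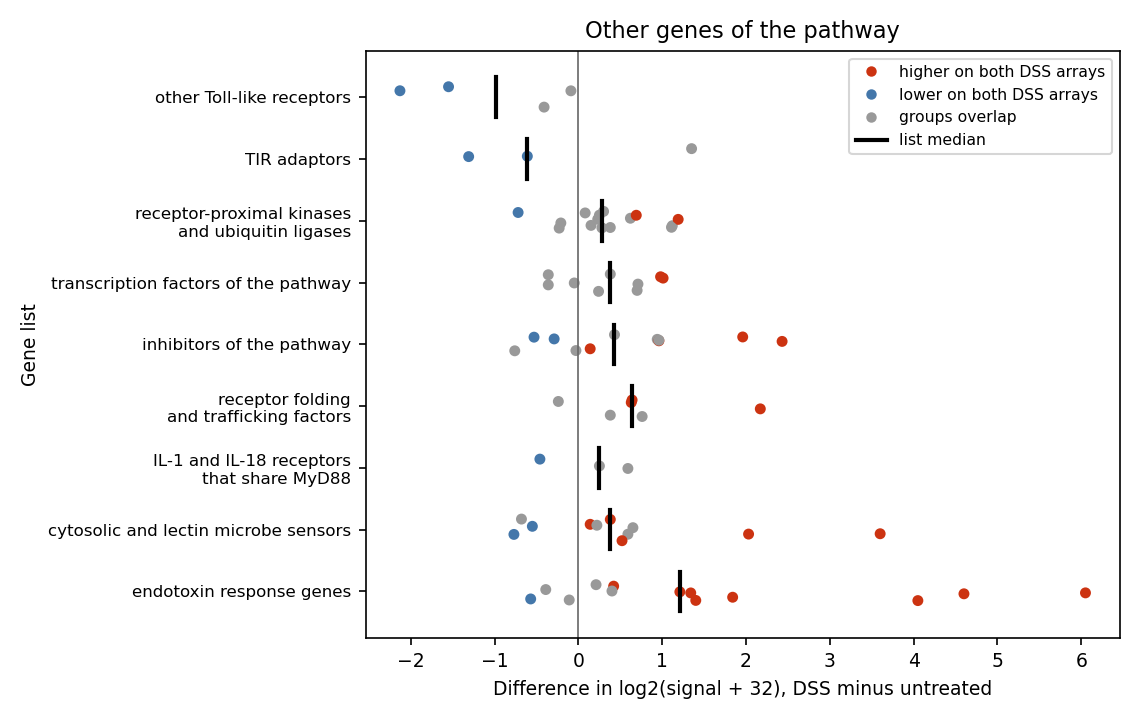
Difference in log2(signal + 32), DSS minus untreated, for the 75 pathway genes in the fit, by list; each point is a gene, red where higher on both DSS arrays, blue where lower, grey where groups overlap, and black bars are list medians. The other Toll-like receptors have a median of -0.98 and the endotoxin response genes one of 1.21.

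Markers of cell types other than T cells were read on the same arrays, in lists also drawn up with earlier results known. Of 15 macrophage markers 14 were read, and 11 were higher and 0 lower on both DSS arrays on their brightest probe set, where 14.8% of all genes were higher and 25.1% lower. Their summed signal was 3451 to 9958 in untreated and 63266 to 87509 in DSS samples. Csf1r (a growth factor receptor of macrophages) had 4342 and 1162 against 33267 and 40991 on its brightest probe set. It differed there by 4.02, and by 2.69 and 1.52 on its others. The complement chain C1qb had 1858 and 325 against 12782 and 17363 on a probe set that can bind related transcripts. It differed there by 4.18, and by 3.84 and 3.15 on its others. The scavenger receptor Cd163 was dim on all 4 arrays. These markers are high on the arrays where Ly86, Cd14 and Tlr1 are high, and their part in the members' differences was not tested.

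B cell markers, relevant to Cd180 and Ly86, had summed signals that overlapped between the groups. Of 11 listed 10 were read, of which 0 were higher and 2 (Vpreb3 and Fcrla) lower on both DSS arrays, with sums of 2936 to 4422 in untreated and 2568 to 3911 in DSS samples. Cd79b (a B cell receptor chain) had 736 and 1742 against 977 and 1579, and the kinase Blk had 486 and 646 against 444 and 814. Neutrophil markers summed to 2177 to 2235 in untreated and 1321 to 2821 in DSS samples, with 0 of 11 higher and 3 lower. Csf3r had 609 and 143 against 399 and 309, and Ngp 311 and 534 against 326 and 220.3. Dendritic cell markers summed to 2919 to 3509 against 2760 to 2802, with 1 of 8 higher and 2 lower. Itgax had 1510.1 and 2420.4 against 1936 and 1582, and Siglech 508 and 284 against 37.5 and 229. The neutrophil sums overlapped between groups too.

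Epithelial markers summed to 10503 to 13842 in untreated and 13981 to 16469 in DSS samples, with 3 of 12 higher and 2 lower. Cdh1 had 5145 and 1675 against 5947 and 4191, and Krt8 had 1353 and 1950.4 against 2878 and 2753. Mast cell and eosinophil markers summed to 1593 to 2202 against 2825 to 3027, with 1 of 9 higher and 3 lower, Kit having 751 and 798 against 1967 and 1942 and Mcpt2 46.9 and 481 against 242 and 339. T cell markers summed to 191987 to 213492 in untreated and 124280 to 131256 in DSS samples. Of 9 read, 2 were higher (Cd3d and Cd3g) and 3 lower (Cd8a, Itgae and Trgv4). Much of the sum was the brighter Itgae probe set, at 101512 and 98459.8 against 43558 and 43518, so the sum is not a measure of T cell share. The median difference of the T cell markers was -0.15, or -0.16 quantile-normalized, and turned to 0.18 on a common median.

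**Figure D5:**
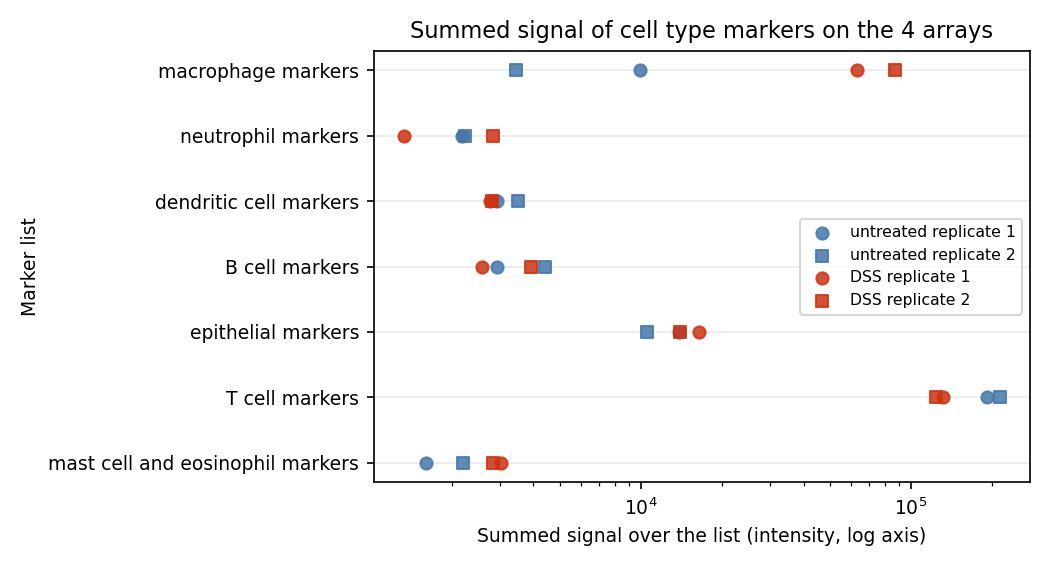
Summed signal of each marker list on each array, on a log axis, blue for untreated and red for DSS, with circles for replicate 1 and squares for replicate 2. Macrophage markers move from at most 9958 in untreated to at least 63266 in DSS samples, while B cell and neutrophil sums overlap.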

How the data were processed

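GCOS is named in the submitters' processing notes, and the authors deposited its signals, which are intensities on a linear scale. Neither its version nor its settings are known from the labels. RNA was isolated with the PicoPure kit and amplified with the RiboAmp HS kit, per the labels' protocols. The mean of each array's deposited intensities after dropping the lowest and highest 2% is near 499.8, so the authors had scaled the arrays.

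Signals were analysed as log2(signal + 32). Probe sets of 64 controls were left out. For genes, the brightest probe set above its array's median on at least 2 of 4 arrays was used, giving 12424 genes. DSS was compared with untreated in limma 3.58.1 (R 4.3.3, lmFit, eBayes with an intensity trend, Benjamini-Hochberg at 0.05), group being the only term. The step was run on data simulated from the model that limma assumes. That checks the code, not whether these arrays follow the model. Standard errors of members come from the same model over all 45037 probe sets, those of other genes from the gene fit. Members and lists were chosen with earlier results of these data known. Named were all members, the remaining Toll-like receptors and adaptors, the 2 genes with the smallest p of each pathway list, the 2 brightest of each marker list and the 3 genes nearest the most different member. Scaling, pseudocount, filter, probe set rule, trend, replicate block and leaving out arrays were varied. Genes of the lists without a probe set of 1 symbol were not analysed here.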

Additional observations from a re-analysis of the deposited data

How the results depend on the processing

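Limma called 0 of 12424 genes and 0 of 75 pathway genes as deposited and under both other scalings, both other pseudocounts, without the filter, with signal above 500 on 2 arrays and without the intensity trend. With a gene's probe sets averaged it called 3 genes, 1 of them in the pathway lists (Il1b). Leaving out 1 array in turn gave 0 to 1791 genes and 0 to 20 pathway genes, nonzero when an untreated array was left out, and 6 to 10 of the 15 member probe sets higher on all remaining DSS arrays, 10 without untreated replicate 1. A replicate block in the model gave 67 called genes (61 higher, 6 lower) and 5 pathway genes (Clec4e, Cxcl2, Il1b, Saa3 and Tnfaip3); the replicate numbers are not taken as pairing, since the deviations of same-numbered arrays correlated at r = 0.0522 over genes. Of the members in the fit, 5 were higher on both DSS arrays under both other scalings, and 3 (Cd14, Ly86 and Tlr1) of the 4 left by the filter at 500. The causes were not tested, beyond the fewer genes or arrays that a setting leaves.

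Of 135 recomputed member differences, 7 moved by more than the replicate SD. By this measure, leaving out 1 array of a pair or adding a replicate block could not move a value. The count therefore speaks only for scaling and pseudocount. The larger pseudocount gave 3.98 for Ly86, 1.58 for Tlr1 and -0.65 for Tlr7 a, and the smaller gave -2.75 for Tlr7 a and 1.46 for Tlr4 a. Scaling to a common median gave 2.39 for Tlr1 and 0.33 for Myd88. Ly86 ranged from 3.98 to 4.96, Cd14 from 1.79 to 2.96, Tlr1 from 1.58 to 2.39, Cd180 from 0.60 to 1.63 and Tlr2 from 0.19 to 0.94, all above 0. Dim signals limit what Tlr4, Tlr7 and Ly96 can show, and the spread between untreated arrays what Tlr13 can.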
